A study of Mus musculus with 4 samples.

Results

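The CC and CXC chemokine ligands were followed through the bone marrow of 5TMM mice, a mouse model of multiple myeloma, to find which cells carried the transcript of each ligand and what purinostat mesylate (PM) did to it. Members were all genes whose symbol in the deposited gene list is Ccl or Cxcl followed by a number and at most 1 letter, with Cxcl12 left out. This rule took 41 of 32285 gene IDs, which share 35 symbols. At least 1 transcript was counted for 26 of the 41, none for the other 15, and 16 had at least 100 transcripts over the 4 mice. Several of the 15 IDs without counts are near-identical copies of Ccl19, Ccl21a, Ccl21b, Ccl21c and Ccl27a, and reads from such copies could have been split or lost in the counting.

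Chemokines are small secreted proteins that bind G protein-coupled receptors and guide leukocytes along a gradient. CC ligands act mostly on monocytes, macrophages, lymphocytes and eosinophils, while CXC ligands with the ELR motif (Cxcl1, Cxcl2, Cxcl3, Cxcl5) act on Cxcr2 of neutrophils and CXC ligands induced by interferon (Cxcl9, Cxcl10) act on Cxcr3 of activated T and NK cells. In the marrow they take part in the release and retention of neutrophils and monocytes, and in myeloma Ccl3 is known as a factor that promotes osteoclasts.

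The mice were of the C57BL/KawRij strain, received luciferase-marked 5TGM1 myeloma cells by vein at 6 weeks of age and were treated 3 weeks later, so that every mouse of both groups carried the tumor cells. The vehicle group and the PM group each held 2 mice, PM was given at 10 mg/kg, and whole bone marrow freed of red cells was taken 24 h after treatment. PM inhibits class I and IIb histone deacetylases. Droplet-based 3' single-cell RNA sequencing gave 1 library per mouse, and values are counts of unique molecular identifiers (UMIs), each standing for 1 captured transcript.

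The 4 libraries held 69828595 to 109447030 UMIs in 8242 to 13848 cell barcodes, of which 7826 to 13387 were kept, at a median of 4717 to 6067 UMIs per kept cell. Any 2 libraries had 18 to 39 barcodes in common, at most 0.421% of the smaller library. Cells were clustered with the ligands kept out of the genes used for clustering, and clusters were named from marker genes, so that each name stands for cells whose transcripts resemble that type. The names mono&prog (monocytes and their progenitors), CAR (Cxcl12-abundant reticular stromal cells) and HSPC (hematopoietic stem and progenitor cells) are those of the study. The 437 cells named eosinophil/basophil prog were led by Prss34, Mcpt8, Fcer1a and Ms4a2, genes known from basophils and mast cells, and are called basophil-like progenitors here. The word progenitors is kept from the name used in the study, and whether these cells are progenitors or mature basophils was not tested. The 524 cells named macrophage had a median of only 749 to 1039 UMIs in the 4 mice. Il1b-high neutrophils (3805 cells) are a mature neutrophil state named from markers that include Il1b, Cxcr2 and Ccrl2. The other neutrophils include a cluster of 3253 cells that scored higher on the Il1b-high markers (1.606) than on the neutrophil markers (0.124). Levels are given in CPM, the UMIs of a ligand for every 1000000 UMIs of the same cell type in the same mouse. A level is not divided by gene length, since these reads come from transcript ends.

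The 26 ligands with a count summed to 229530 UMIs, of which 95.6% belonged to Ccl6, Cxcl2, Ccl9, Ccl5, Ccl3 and Ccl4. The main source of a ligand was taken as the cell type with the highest share of its UMIs, averaged over the 4 mice with equal weight, and is a description without a test. A share depends on how many cells of a type there are and how much RNA each holds, and therefore the type with the highest level is given as well. For 6 of the 16 ligands with at least 100 UMIs both were the same type. Of the 16 main sources, 11 stayed as they were at a finer clustering, and 11 with the ligands among the genes used for clustering. In both cases Ccl6, Cxcl2 and Cxcl3 moved from neutrophils to Il1b-high neutrophils.

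Ccl6 and Ccl9 are relatives that bind Ccr1 and have no human counterpart of the same name. Ccl6 was the most counted ligand, with 105288 UMIs. Neutrophils held 45.2% ± 3.25 of them (SD over 4 mice), Il1b-high neutrophils 23.7% and mono&prog 20.1%. Its level was highest in Il1b-high neutrophils, at 2645 ± 297 CPM, followed by basophil-like progenitors at 1415 ± 228. Ccl9, encoded beside it on the same strand, lay mainly in mono&prog, with 56.0% ± 17.9 of its 35816 UMIs, then in HSPC with 18.0% and in basophil-like progenitors with 13.1%. The basophil-like progenitors carried it at the highest level, 1278 ± 489, above every other type in each mouse.

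Ccl3, Ccl4 and Ccl5 are inflammatory CC ligands that attract T cells, NK cells and monocytes. Basophil-like progenitors held 46.9% ± 3.82 of the 14436 Ccl3 UMIs and 55.9% ± 7.30 of the 12984 Ccl4 UMIs, although they made up few of the cells. Their levels were 2106 ± 727 for Ccl3 and 2355 ± 1330 for Ccl4. NK cells came next, at 257 ± 102 and 504 ± 218, and lay below the basophil-like progenitors in every mouse for both ligands. Ccl5 was carried by lymphocytes: T cells held 68.8% ± 6.88 of 14714 UMIs and NK cells 24.3% ± 6.96. The level of Ccl5 was 2625 ± 462 in NK cells and 1755 ± 631 in T cells, and these ranges overlapped.

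Among the ELR ligands, Cxcl2 was a neutrophil transcript. Neutrophils held 48.8% ± 4.39 and Il1b-high neutrophils 36.8% ± 6.29 of its 36099 UMIs, and the level was 1392 ± 704 in Il1b-high neutrophils against 129 ± 65.7 in the other neutrophils. The 358 UMIs of Cxcl3 fell in the same cells, with 47.1% in neutrophils and 37.5% in Il1b-high neutrophils. Cxcl5, known from platelets and epithelia, had 105 UMIs, and in the 3 mice with counts 89.5% ± 8.46 lay in the megakaryocyte/platelet cluster. That share rests on few cells, since 61 of the 68 UMIs of the vehicle 2 mouse in this cluster came from 1 cell that was also called a doublet. Cxcl1 had 1 UMI in all.

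The other ligands were rarer. The monocyte attractant Ccl2 (1519 UMIs) lay in mono&prog with 76.0% ± 8.12. Cxcl10 (1586 UMIs) also had its main source there, with 52.3% ± 9.16. Cxcl9 (425 UMIs) was shared between macrophages, with 31.6% ± 23.3, and mono&prog, with 29.1% ± 37.4, and had its highest level in macrophages, at 61.5 ± 32.7. Its macrophage UMIs lay in only 3 to 7 cells a mouse. Cxcl14, a homeostatic ligand of stromal and epithelial cells, lay mostly in the stroma: CAR cells held 85.0% ± 1.82 of its 414 UMIs, at a level of 536 ± 235, while the next type stood at 3.10. The transmembrane ligand Cxcl16 (355 UMIs) was spread over mono&prog (29.4%), non-classical monocytes (21.3%) and macrophages (16.6%), with the highest level, 92.5, in non-classical monocytes. Ccl25, the thymic and gut ligand of Ccr9, and Ccl27a, a skin ligand of Ccr10, were spread thinly. Ccl25 lay at 25.7% in neutrophils and 25.6% in HSPC and had its highest level in B cells, at 26.1, whereas Ccl27a was at 35.6% in HSPC. Ccl24, a ligand of Ccr3 on eosinophils, had 129 UMIs, 55.3% of them in mono&prog. The remaining 10 ligands had 1 to 93 UMIs each. Ccl25, Cxcl10, Ccl27a, Cxcl16 and Ccl2 overlap a coding gene on the other strand, and the counting is not stated to have used strand.

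**Figure D1:**
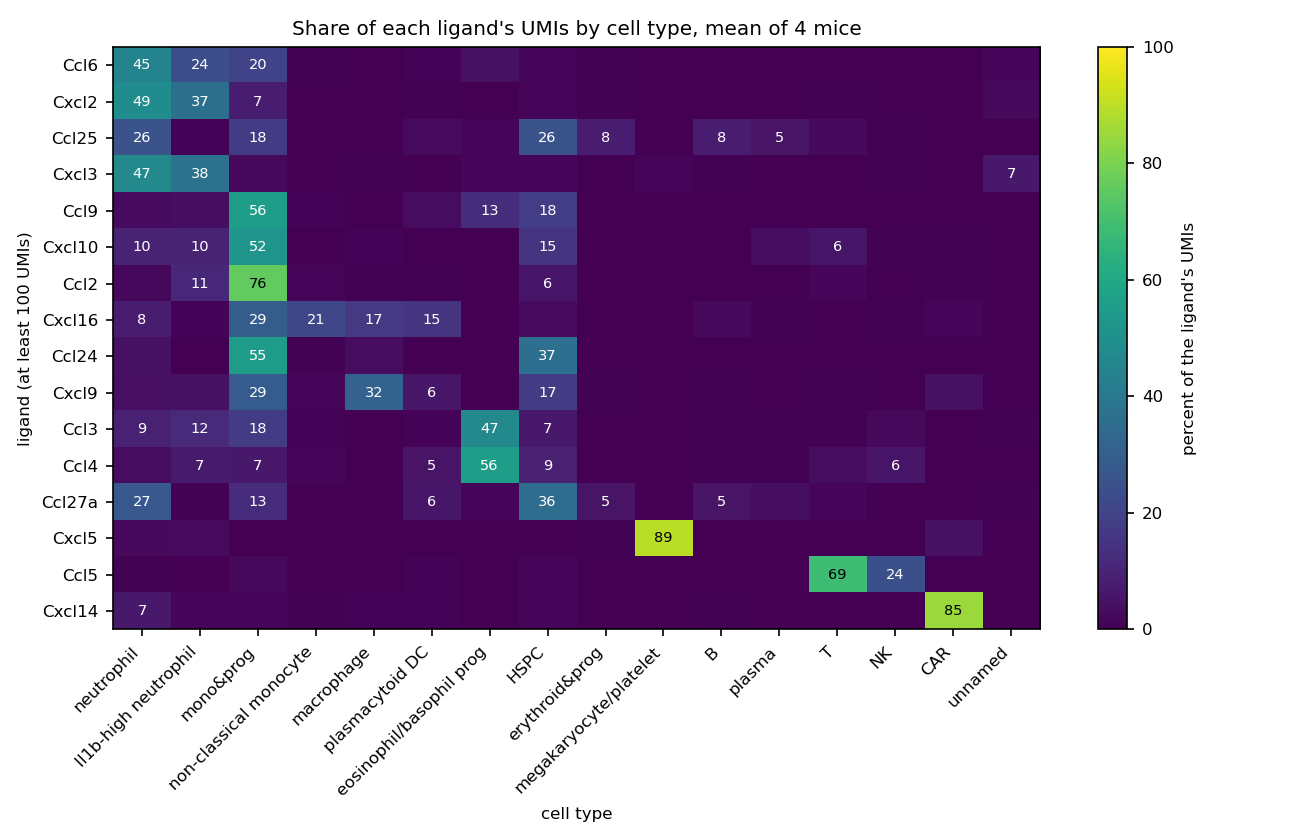
Share of the UMIs of each ligand (rows, the 16 with at least 100 UMIs) that lay in each cell type (columns), in percent, as the mean of 4 mice. Ccl6, Cxcl2 and Cxcl3 share the 2 neutrophil columns, Ccl3 and Ccl4 peak in eosinophil/basophil prog, and Cxcl14 lies at 85.0% in CAR.

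The effect of PM was tested on UMIs summed per mouse and cell type with the quasi-likelihood test of edgeR over all genes of that type. To be called, a gene had to change by more than 0.5 on the log2 scale, up or down, and to reach an adjusted p (Benjamini-Hochberg) below 0.05. With 2 mice per group an exact two-sided permutation test of a single value cannot give a p below 0.33, so that each call rests on the spread edgeR estimates across genes. The labels name 1 library per mouse and say nothing further of separate handling. A figure legend of the study speaks of 2 independent experiments, without naming the mice of each.

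PM changed 3 ligands in 3 myeloid cell types, in different directions. Ccl9 and Ccl3 rose in Il1b-high neutrophils and in the other neutrophils, Cxcl3 fell in Il1b-high neutrophils, and Ccl9 fell in mono&prog. Of 105 pairs of a ligand and a cell type that had counts enough to be tested (17 ligands, 15 types), 6 were called, 4 higher and 2 lower, which is 5.71%. Leaving out 1 mouse at a time moved this count to 13 to 23, with 15 without vehicle 1, 14 without vehicle 2, 13 without PM 1 and 23 without PM 2 (8 higher and 15 lower), and without a filter on low counts it was 27. Over all genes and these types 1.61% of tests were called. In Il1b-high neutrophils, where 5.68% of all genes were called, 2 of 9 ligands were higher and 1 was lower. In neutrophils, where 5.62% of all genes were called, 2 of 10 were higher and none was lower. In mono&prog, at 1.73% of all genes, 1 of 13 was lower. The median log2 fold change of the tested ligands was -0.55 in Il1b-high neutrophils, 0.38 in neutrophils and -0.22 in mono&prog, whereas that of all tested genes lay between -0.01 and 0.00 in the 3 types. Over all types the median of the 105 pairs was 0.01, against 0.00 over all genes and types. Of the 105 pairs, 20 had an unadjusted p under 0.05. The share of all genes under that unadjusted p was not counted. Counts of this kind, here and below, are therefore not read as an excess among the ligands.

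**Figure D2:**
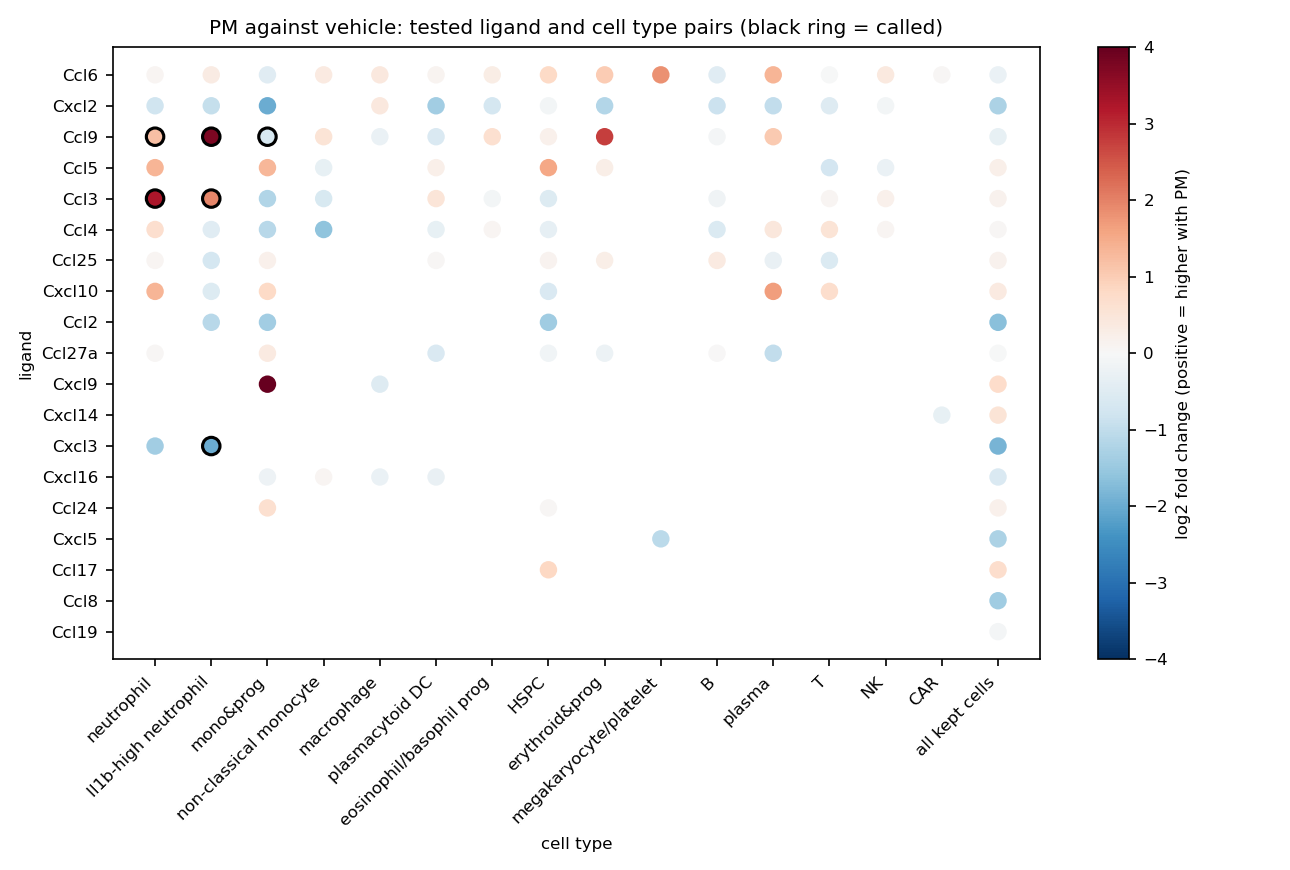
Log2 fold change of PM against vehicle (color) for each tested pair of a ligand (rows) and a cell type (columns), with the sum of all kept cells in the last column. The 6 called pairs carry a black ring and lie in neutrophils, Il1b-high neutrophils and mono&prog. Strong colors without a ring, such as Cxcl9 in mono&prog, did not pass the test.

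Ccl9 showed the largest called change. In Il1b-high neutrophils it stood at 24.6 and 17.5 CPM with vehicle (62 and 39 UMIs) and at 261 in each of the treated animals (574 and 597 UMIs). The PM mean was 12.4 times the vehicle mean, with a log2 fold change of 3.76 (SE 0.23, adjusted p = 2.96e-05 by edgeR), and the groups were far apart. In the other neutrophils the levels were much lower, 4.34 and 5.33 with vehicle against 13.9 and 9.58 with PM, a log2 fold change of 1.21 (SE 0.22, adjusted p = 0.0197). This smaller rise was no longer called without vehicle 1 (1.07, adjusted p = 0.158) or when the ligands themselves were allowed among the genes used for clustering (0.46, adjusted p = 0.393). In mono&prog, its main source, Ccl9 went the other way, from 515 and 424 with vehicle to 306 and 301 with PM. That log2 fold change was -0.66 (SE 0.14, adjusted p = 0.0461). The groups did not overlap, but the call was lost in 5 of 15 alternatives, among them without vehicle 1 (-0.52, adjusted p = 0.237), without PM 1 (-0.72, adjusted p = 0.149) and without PM 2 (-0.60, adjusted p = 0.123). The makeup of mono&prog also differed between the groups. HSPC markers summed in it to 1642 and 1662 CPM with vehicle and to 3630 and 2333 with PM. Its larger cluster, led by Vcan and Fn1, held 684 of 1032 and 434 of 699 cells with vehicle. With PM it held 755 of 1346 and 293 of 513. The part of this makeup in the lower Ccl9 level was not tested. Basophil-like progenitors, with Ccl9 at 743 and 1244 against 1199 and 1928, were not called.

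The difference between the types was tested as well. The PM effect on Ccl9 in neutrophils exceeded that in mono&prog by 1.87 on the log2 scale (SE 0.24, adjusted p = 0.0137 by edgeR with the mouse as a block), where 4.2% of all genes were called. In the marrow as a whole Ccl9 stood at 121 and 104 with vehicle and at 107 and 90.7 with PM, and it was not called. Mono&prog made up 11.1% and 8.93% of the kept cells with vehicle and 10.1% and 5.54% with PM.

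The rise of Ccl9 was also seen as more cells with the transcript. After each cell was thinned to 1000 UMIs, 1.31% and 0.911% of Il1b-high neutrophils had a Ccl9 UMI with vehicle, against 15.2% and 14.7% in the PM mice. Without thinning the shares were 2.55% and 2.58% against 21.1% and 21.3%, at median depths of 2743 and 2299.5 UMIs against 1791 and 2255. B cells, which should lack Ccl9, gave thinned shares of 0.424% and 0.206% with vehicle and 0.840% and 0% with PM, at medians of 2176 to 2577 UMIs. The shares of the PM mice in Il1b-high neutrophils lay above those of B cells, and the median depth of Il1b-high neutrophils was no higher with PM. Among types with little Ccl9, its log2 fold change was -0.09 in B cells and 1.05 in plasma cells. In erythroid cells with their progenitors it was 2.75 (SE 0.81, adjusted p = 0.247 by edgeR), not called. T cells held 0% and 0% of all Ccl9 UMIs with vehicle and 0.242% and 0.180% with PM. They numbered 212 and 206 cells against 718 and 473. The part of free RNA in the rise in Il1b-high neutrophils was not tested. In mono&prog the thinned share went from 41.9% and 37.3% to 29.4% and 28.7%. Of the Il1b-high neutrophils with Ccl9, at most 4.55% in any mouse were called doublets. In the other neutrophils the thinned shares were 0.632% and 0.647% with vehicle against 1.95% and 1.14% with PM, and those of B cells reached 0.840%. Of the neutrophils with a Ccl9 UMI, 9.09% and 15.1% with vehicle and 15.3% and 14.3% with PM were called doublets, against 4.46% to 7.07% of those without one.

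**Figure D3:**
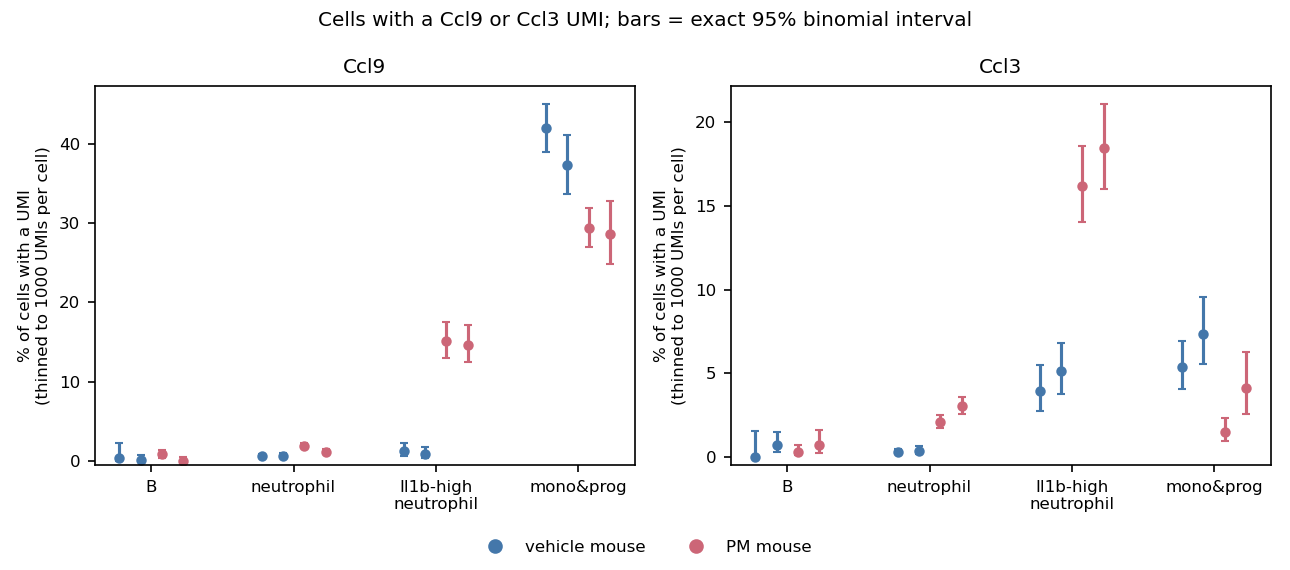
Percent of cells with at least 1 Ccl9 UMI (left) or Ccl3 UMI (right) after thinning to 1000 UMIs per cell, for each mouse in 4 cell types, with exact 95% binomial intervals that cover counting error only. For Ccl9 in Il1b-high neutrophils the PM mice lie at 15.2% and 14.7% and the vehicle mice at 1.31% and 0.911%, while B cells stay under 1%.

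The rise was found in the separate clusters of these cells. In the larger Il1b-high cluster Ccl9 was at 20.5 and 19.1 with vehicle and at 255 and 288 with PM. In the smaller one, led by interferon-induced genes such as Ifit1 and Rsad2 and more populous with PM (132 and 53 cells against 361 and 240), it was at 42.7 and 0 against 272 and 189. Leaving out the clusters led by interferon-induced genes, an alternative chosen after seeing the data, kept the 5 calls in the 2 neutrophil types. The 10 markers of mono&prog, the main source of Ccl9, summed in Il1b-high neutrophils to 2128 and 1986 with vehicle and to 2490 and 2676 with PM, with none at 0. The 12 HSPC markers summed to 138 and 118 against 345 and 227, with 1 at 0. Genes of monocytes differed in direction in Il1b-high neutrophils. Ly6c2 was at 445 and 197 with vehicle against 766 and 791 with PM, and Ctss at 155 and 78.3 against 76.9 and 58.6. For Csf1r, Ccr2 and F13a1 the groups overlapped. Ccr1 was at 1550 on average in Il1b-high neutrophils and at 129 in mono&prog. The sum of the mono&prog markers is therefore not taken as a measure of monocyte RNA. The part of mono&prog and HSPC transcripts in the result was not tested.

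The sequences just before the start of the 3 called genes and of Ccl6 are shown here. The reason is that the main edgeR fit called Ccl9 and did not call Ccl6, its neighbor on chromosome 11, in any type. That difference between the genes was not itself tested. They are the 250 bases upstream of the start in RefSeq (GRCm38.p6), read 5' to 3' on the strand of the gene. Capitals mark matches to AP-1 (TGANTCA) or to NF-kB, searched on both strands.
Ccl9 promoter, chr11:83578637-83578886, minus strand: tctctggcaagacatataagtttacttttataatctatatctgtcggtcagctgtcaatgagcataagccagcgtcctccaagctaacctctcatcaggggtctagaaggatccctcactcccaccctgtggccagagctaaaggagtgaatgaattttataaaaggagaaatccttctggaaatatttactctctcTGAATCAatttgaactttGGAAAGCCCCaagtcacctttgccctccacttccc
Ccl6 promoter, chr11:83593088-83593337, minus strand: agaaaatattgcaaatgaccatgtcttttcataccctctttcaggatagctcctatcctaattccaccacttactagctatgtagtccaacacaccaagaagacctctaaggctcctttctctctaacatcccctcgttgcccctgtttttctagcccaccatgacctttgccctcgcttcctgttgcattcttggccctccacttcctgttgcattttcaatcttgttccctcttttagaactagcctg
Ccl3 promoter, chr11:83649379-83649628, minus strand: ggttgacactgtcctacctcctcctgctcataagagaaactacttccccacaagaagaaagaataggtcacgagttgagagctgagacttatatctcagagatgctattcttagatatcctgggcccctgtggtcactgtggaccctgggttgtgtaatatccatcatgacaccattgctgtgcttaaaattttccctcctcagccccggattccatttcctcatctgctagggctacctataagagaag
Cxcl3 promoter, chr5:90785851-90786100, plus strand: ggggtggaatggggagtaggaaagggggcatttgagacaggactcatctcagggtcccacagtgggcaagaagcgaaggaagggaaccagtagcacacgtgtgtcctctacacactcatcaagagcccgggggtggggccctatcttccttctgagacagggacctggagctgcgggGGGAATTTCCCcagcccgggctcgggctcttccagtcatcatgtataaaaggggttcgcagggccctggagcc
Before Ccl9 the AP-1 letters began 53 bases and the NF-kB letters 35 bases upstream of the start. Before Cxcl3 the NF-kB letters were found on both strands in overlap, beginning 73 bases upstream on the plus strand. None of the motifs searched, which also included ISRE (GAAA, any 2 bases, then GAAA) and PU.1 (GAGGAAG), was found before Ccl6 or Ccl3. Of the 26 ligands with a count, 19 had a promoter in the table, and of these 3 held AP-1, 6 NF-kB, 3 ISRE and 1 PU.1. Over 32851 promoters of the same length, 6.75% held AP-1, 7.25% NF-kB, 2.98% ISRE and 10.6% PU.1. These matches are a description of letters and say nothing of binding.

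Ccl6, which lies a few kilobases from Ccl9 (chr11:83587882-83593087 beside chr11:83572919-83578636, both on the minus strand, GRCm38), was not called in any type by the main edgeR fit. Its level in Il1b-high neutrophils was 2261 and 2718 with vehicle against 2978 and 2621 with PM, and the groups overlapped. In neutrophils it was 318 and 338 against 387 and 352 (log2 fold change 0.08, adjusted p = 0.771 by edgeR). In mono&prog it was 469 and 473 against 374 and 306 (-0.50, SE 0.15, adjusted p = 0.132), lower in both PM mice but short of the threshold. Nevertheless, the PM effects on Ccl6 in neutrophils and in mono&prog differed from each other by 0.60 (SE 0.11, adjusted p = 0.00682 by edgeR), a difference no longer called without PM 1 (adjusted p = 0.0566) or without PM 2 (adjusted p = 0.0789). Over the 26 tested pairs of Ccl6 and Ccl9, edgeR called 2 higher and 1 lower, with a median log2 fold change of 0.35. DESeq2 called 4 of the 26, the added pair being Ccl6 in mono&prog.

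**Figure D4:**
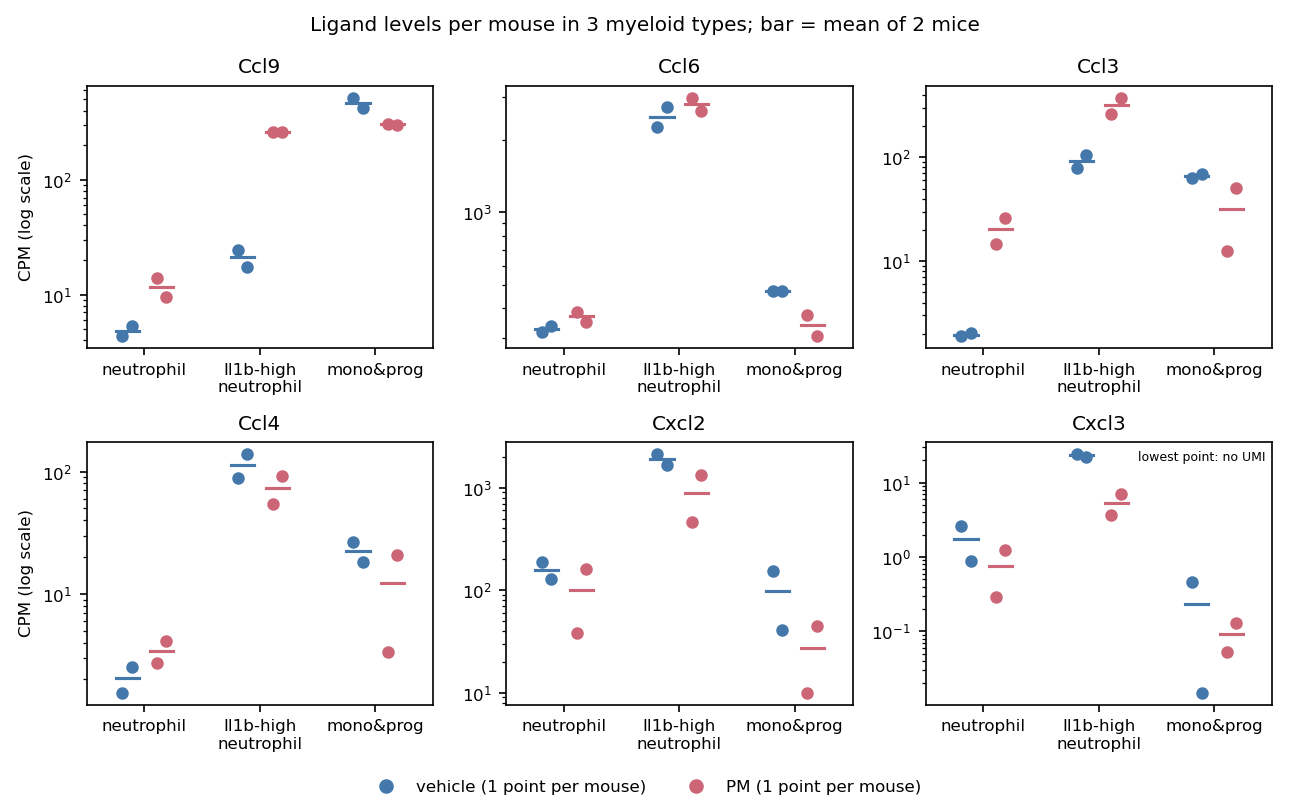
Level of 6 ligands in CPM (log axis, a separate scale in each panel) in neutrophils, Il1b-high neutrophils and mono&prog, with 1 point per mouse and a bar at the mean of the 2 mice. Ccl9 and Ccl3 lie higher in both PM mice in the 2 neutrophil types, and Cxcl3 lies lower in both PM mice in Il1b-high neutrophils. Ccl6, Ccl4 and Cxcl2 were not called in these types by the main edgeR fit. A lowest point set apart in the Cxcl3 panel stands for a mouse without a UMI.

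Ccl3 rose in both neutrophil types. In Il1b-high neutrophils its level was 78.9 and 106 with vehicle (199 and 235 UMIs) against 260 and 373 with PM (572 and 854 UMIs), 3.43 times higher on average. The log2 fold change was 1.94 (SE 0.22, adjusted p = 0.00299 by edgeR). In the other neutrophils 1.89 and 2.04 with vehicle (81 and 56 UMIs) stood against 14.7 and 26.2 with PM (550 and 761 UMIs), 10.4 times higher, with a log2 fold change of 3.27 (SE 0.28, adjusted p = 0.00157). Both calls held in all 16 alternatives, as did those of Ccl9 and Cxcl3 in Il1b-high neutrophils. The thinned share of Il1b-high neutrophils with a Ccl3 UMI was 3.92% and 5.13% with vehicle against 16.2% and 18.5% with PM, and B cells gave 0% to 0.722%. In the other neutrophils 0.307% and 0.353% stood against 2.08% and 3.01%, so that most of these cells gave no Ccl3 UMI in either group. There, 13.8% and 12.0% of the cells with a Ccl3 UMI were called doublets in the PM mice, against 7.09% and 6.66% of the cells without one. The Ccl3 call in neutrophils was among those that held with called doublets left out. The makeup also differed at the finer clustering. A cluster named neutrophil and led by Retnlg and Asprv1 held 109 and 211 cells with vehicle and 875 and 625 with PM. It scored 1.182 for Il1b-high neutrophil and 0.479 for neutrophil. A cluster named Il1b-high neutrophil and led by Prok2 and Cstdc4 held 780 and 234 against 52 and 103. The part of this makeup in the Ccl3 and Ccl9 levels of neutrophils was not tested.

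Outside the neutrophils Ccl3 was not called by the main edgeR fit. In basophil-like progenitors, its main source, it stood at 1926 and 2380 with vehicle and 1202 and 2918 with PM (-0.09, adjusted p = 0.998 by edgeR), and the PM mice lay on either side of the vehicle mice. In mono&prog it was 63.9 and 69.7 against 12.6 and 50.6 (-1.20, SE 0.86, adjusted p = 0.678), with PM 1 far below the other 3 mice. The difference of 4.62 between the effects in neutrophils and in mono&prog was not called either (SE 0.57, adjusted p = 0.0716).

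Ccl4 is the neighbor of Ccl3 on chromosome 11 (chr11:83662584-83664683, plus strand) and is often expressed with it. It was not called in any type by the main edgeR fit or by DESeq2. In Il1b-high neutrophils its level was 88.8 and 139 with vehicle against 54.1 and 91.8 with PM (-0.47, adjusted p = 0.328 by edgeR), where Ccl3 had risen. In the other neutrophils it was 1.56 and 2.52 against 2.75 and 4.14 (0.67, adjusted p = 0.20). Basophil-like progenitors ranged from 832 in PM 1 to 4052 in PM 2, around the vehicle mice at 2057 and 2481. In non-classical monocytes the log2 fold change of Ccl4 was -1.61 (SE 0.40, adjusted p = 0.188 by edgeR). There it was called with the replicate block and without the filter on low counts, but not with the crossed block. At the finer clustering Ccl4 was called in neutrophils.

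Ccl5 was lower in the T cells of both PM mice, at 1350 and 1247 against 2633 and 1791 with vehicle, but was not called (-0.73, SE 0.18, adjusted p = 0.137 by edgeR). In T cells 0.137% of all genes were called. The makeup of the T cells shifted at the same time. At a finer clustering, a cluster led by Cd8b1 and Tcf7 held 51 and 80 cells with vehicle and 436 and 253 with PM and carried Ccl5 at 1008, 316, 688 and 440, whereas a cluster with Cxcr6 and Klrc1 held 161, 126, 281 and 220 cells and carried it at 3292, 2805, 2464 and 2199. The part of this shift in the lower T cell level was not tested. In NK cells Ccl5 was at 2387 and 3299 against 2540 and 2275, and the groups overlapped. In all, of 29 tested pairs of Ccl3, Ccl4 and Ccl5, 2 were higher and none was lower, with a median log2 fold change of 0.06.

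Cxcl3, a neutrophil attractant, fell in Il1b-high neutrophils. Its level there was 24.2 and 22.5 with vehicle (61 and 50 UMIs) against 3.64 and 7.0 with PM (8 and 16 UMIs), 0.228 times the vehicle mean, and the groups did not overlap. The log2 fold change was -1.97 (SE 0.36, adjusted p = 0.0156 by edgeR). The thinned share of cells with a Cxcl3 UMI was 1.90% and 1.59% against 0.191% and 0.756%, and in B cells 0% to 0.138%. The makeup of the Il1b-high neutrophils also differed between the groups. At a finer clustering, a cluster led by Ptgs2 and Il1b held 270 and 488 cells with vehicle and 188 and 182 with PM. Within it Cxcl3 was at 41.9 and 41.3 against 0 and 17.1, on 26, 43, 0 and 6 UMIs. Il1b itself was at 4773 and 6235 in the Il1b-high neutrophils of the vehicle mice and at 2833 and 4937 in those of the PM mice. The part of the makeup in the result was not tested. In the other neutrophils the level was 2.59 and 0.876 against 0.293 and 1.24 (-1.39, adjusted p = 0.370), and the groups overlapped.

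Cxcl2, the abundant relative of Cxcl3, varied widely between the mice. In Il1b-high neutrophils it stood at 2126 and 1663 with vehicle and at 459.5 and 1321 with PM, lower in both PM mice but not called (-0.95, SE 0.53, adjusted p = 0.349 by edgeR). In neutrophils the levels were 190 and 127 against 38.5 and 161. In mono&prog they were 153 and 40.8 against 10.0 and 44.4 (-1.97, SE 1.32, adjusted p = 0.658 by edgeR), and the macrophages had 113 and 31.8 against 33.3 and 138. The 10 neutrophil markers summed in macrophages to 140650 and 186864 CPM with vehicle and to 227375 and 178008 with PM. In mono&prog they summed to 22169 and 15689 against 35853 and 18461. The part of neutrophil RNA in the macrophage levels of Cxcl2 was not tested. PM 1 was the lowest mouse in both neutrophil types and in mono&prog, and it lay below PM 2 in 12 of the 14 types with at least 10 UMIs of Cxcl2. The same gap between the PM mice was seen for Ccl3, in 14 of 14 such types, and for Ccl4, in 13 of 13, and vehicle 1 was below vehicle 2 in 7 and 6 of these types. The PM effects on Cxcl2 in macrophages and mono&prog differed by 2.18 (SE 0.45, adjusted p = 0.00117 by edgeR), where 0.244% of all genes were called. That difference was no longer called with DESeq2 (adjusted p = 0.416), without vehicle 1 (adjusted p = 0.0834), without PM 1 (adjusted p = 0.0945) or without PM 2 (adjusted p = 0.726). Of 15 tested pairs of the ELR ligands, 1 was lower and none was higher, and their median log2 fold change was -0.95. These pairs come from the same 4 mice and mostly from Cxcl2, so they are not separate evidence.

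The Cxcr3 ligands are induced by interferons, and neither was called in any of 8 tested pairs by the main edgeR fit or by DESeq2. By edgeR 2 pairs had an unadjusted p under 0.05, and the median log2 fold change was 0.76. Some alternatives called a pair, as given below. Cxcl10 in mono&prog was at 15.6 and 7.37 with vehicle against 21.6 and 19.7 with PM (236, 81, 406 and 150 UMIs). Its log2 fold change was 0.80 (SE 0.37, adjusted p = 0.427 by edgeR), and both PM mice lay above both vehicle mice. In PM 2, 1 cell held 67 of the 150 UMIs. Without the top cell of each mouse the levels were 13.9 and 5.46 against 17.4 and 10.9, and the groups overlapped. Over its 15 alternatives the adjusted p ranged from 0.000682 to 0.822. With the replicate number as a block it was called (0.85, adjusted p = 0.00992), as it was without vehicle 1 (1.46, adjusted p = 0.00655) and without the filter on low counts. With the numbers crossed it was not (0.88, adjusted p = 0.438), and without vehicle 2 the log2 fold change was 0.38 (adjusted p = 0.346). In neutrophils Cxcl10 was at 0.793 and 0.438 against 2.03 and 1.45 (1.36, SE 0.38, adjusted p = 0.0699 by edgeR), higher in both PM mice. This pair was called with total UMIs, without the filter on low counts, with the replicate block and with called doublets left out. It was also called at the finer clustering and with the ligands among the genes used for clustering. It was not called with DESeq2, RLE size factors, the crossed block, stricter cells, a coarser clustering or the interferon-led clusters left out. The makeup of the neutrophils also differed between the groups. A cluster led by Cmpk2 and Ifit1, which interferon induces, held 138 of 5608 and 60 of 3546 neutrophils with vehicle. With PM it held 626 of 6141 and 321 of 4632. The part of this makeup in the Cxcl10 level was not tested.

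In the other types Cxcl10 had no common direction. The plasma cells, which in these mice include the injected tumor cells, had 0.614 and 3.01 against 6.09 and 9.29 (1, 7, 28 and 21 UMIs, adjusted p = 0.646 by edgeR), higher in both PM mice. Il1b-high neutrophils had 25.4 and 9.90 against 11.4 and 10.9, T cells 16.4 and 3.26 against 9.41 and 22.5, and HSPC 4.44 and 2.93 against 2.41 and 2.56, the last lower in both PM mice. B cells had 0, 0, 4 and 3 UMIs in vehicle 1, vehicle 2, PM 1 and PM 2, plasmacytoid dendritic cells 1, 0, 4 and 2, and erythroid cells with their progenitors 0, 0, 3 and 3. Macrophages had 0, 6, 0 and 3, CAR cells 0, 2, 2 and 1, and NK cells 0, 2, 0 and 2. Basophil-like progenitors had 1, 0, 0 and 3 and non-classical monocytes 1, 1, 0 and 1. These counts are too low to show a difference.

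Cxcl9 in mono&prog was carried by very few cells. Its UMIs there numbered 9 and 1 with vehicle against 216 and 7 with PM. The log2 fold change of 4.14 had an SE of 1.88 and an adjusted p of 0.497 by edgeR. With the replicate number as a block this pair was called, and with the numbers crossed it was not. Of the 216 UMIs in PM 1, 150 lay in 1 cell, which also held 79 UMIs of Cxcl10, and 10 cells held all of them. In macrophages Cxcl9 was at 90.2 and 58.3 against 16.7 and 80.7, from 5 to 24 UMIs a mouse, and the groups overlapped. There, 1 cell held 18 of 20 UMIs in vehicle 1 and 1 cell held 16 of 22 in vehicle 2. The top cell of PM 2, with 10 of 24 UMIs, was called a doublet. Without the top cell of each mouse the macrophage levels were 9.06 and 15.9 against 10.0 and 47.2. The effects in macrophages and mono&prog differed by -4.24 (SE 1.03, adjusted p = 0.0409 by edgeR), and without PM 1 the difference was -1.15 and no longer called. It was also not called without vehicle 1, without vehicle 2, with DESeq2 or with RLE size factors.

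The Ccr2 ligands, which draw monocytes out of the marrow, were called in none of 3 tested pairs by edgeR or DESeq2, all of them Ccl2, with 1 at an unadjusted p under 0.05 and a median log2 fold change of -1.39. Ccl2 in mono&prog was at 44.6 and 20.5 with vehicle and at 8.73 and 18.4 with PM (-1.39, SE 0.66, adjusted p = 0.512 by edgeR). Over all kept cells it was at 9.28 and 4.42 against 1.89 and 2.88 (-1.68, SE 0.43, adjusted p = 0.293), lower in both PM mice. No ligand of the 19 tested was called in all kept cells by edgeR, where 0.0128% of all genes were called, and 3 of the 19 had an unadjusted p under 0.05. DESeq2 called 1 of them, Ccl2. The median log2 fold change in all kept cells was -0.02 for the ligands and 0.02 for all genes.

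Ccl7, a close relative of Ccl2, had 29 UMIs in all, 14 and 4 of them with vehicle against 10 and 1 with PM. In the order vehicle 1, vehicle 2, PM 1 and PM 2, non-classical monocytes had 1, 0, 8 and 0 of them and HSPC 8, 0, 1 and 0. Mono&prog had 3, 1, 0 and 0, Il1b-high neutrophils 0, 3, 0 and 0, neutrophils 1, 0, 0 and 1, macrophages 1, 0, 0 and 0, and B cells 0, 0, 1 and 0. No type had Ccl7 in both PM mice, and a difference was not detectable at this depth.

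Of the ligands counted as homeostatic or tissue-bound, none of 21 tested pairs was called by edgeR or DESeq2 and none had an unadjusted p under 0.05, with a median log2 fold change of -0.15. Cxcl14 in CAR cells was at 428 and 781 with vehicle and 262 and 674 with PM, with overlap. Ccl25 in B cells was at 25.9 and 21.0 against 29.1 and 28.2 (0.37, adjusted p = 0.396 by edgeR). Cxcl16 in non-classical monocytes was at 69.9 and 119 against 117 and 63.6, and Ccl27a in HSPC at 6.33 and 7.07 against 6.20 and 6.02. The ligands of Ccr4, Ccr3 and Ccr8 were called in none of 3 pairs by either tool, with none at an unadjusted p under 0.05, and Ccl24 in mono&prog was at 0.529 and 1.82 against 1.76 and 1.84. Cxcl5 in the megakaryocyte/platelet cluster had 0 and 68 UMIs with vehicle and 9 and 22 with PM, and was not called (-1.08, SE 1.04, adjusted p = 0.998 by edgeR).

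The receptors of these ligands were counted in the same sums. Ccr1, the receptor of Ccl3, Ccl6 and Ccl9, was at 1550 ± 135 CPM (mean ± SD of 4 mice) in Il1b-high neutrophils, the cells in which Ccl9 and Ccl3 rose, and at 422 in the other neutrophils. Cxcr2, the receptor of Cxcl2 and Cxcl3, was at 2527 ± 159 in Il1b-high neutrophils, which it helped to name. Ccr2 was at 1745 ± 319 in mono&prog, which it also helped to name.

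Among 19 chemokine receptors, 17 were tested in 102 pairs, of which 2 were higher and 3 lower with PM. Over all genes and types 1.61% of tests were called. The same share stands beside the counts of atypical receptors and other chemokines below. Of the calls given for receptors and other chemokines, all by edgeR, DESeq2 made 1, Cxcr4 in B cells (adjusted p = 0.000178), and the rest depend on the tool. In all, DESeq2 called 2 receptor pairs, 1 atypical receptor pair and 0 pairs of the other chemokines. Its calls that edgeR did not share are not named here. In B cells, where 5.20% of all genes were called, Cxcr4, the receptor of Cxcl12 that retains B cells in the marrow, was lower, at 677 and 565 against 310 and 369 (-0.86, adjusted p = 0.00263). The makeup of the B cells also differed. A cluster led by Ighd and Fcer2a held 118 of 243 and 270 of 986 B cells with vehicle. With PM it held 922 of 1453 and 413 of 742. A cluster led by Vpreb1 and Igll1 held 87 and 521 cells against 198 and 133. The part of this makeup in the lower Cxcr4 level was not tested. Cxcr3 in Il1b-high neutrophils, where 5.68% of all genes were called, went from 1.59 and 3.60 to 10.5 and 7.87 (1.98, adjusted p = 0.0457), on 4, 8, 23 and 18 UMIs. Ccr9, the receptor of Ccl25, was lower in T cells, at 67.0 and 105 against 30.6 and 31.5 (-1.45, adjusted p = 0.0108), where 0.137% of all genes were called. Cx3cr1, the fractalkine receptor, was lower in plasmacytoid dendritic cells, at 129 and 137 against 78.7 and 73.2 (-0.81, adjusted p = 0.0306), where 0.488% of all genes were called. In each of these 4 pairs the groups did not overlap.

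Of 5 atypical receptors, which take up or present ligands without signaling, 4 were tested in 9 pairs and 1 pair was lower. Ccrl2, which presents chemerin and is among the markers that named the Il1b-high neutrophils, was lower in them, at 117 and 130 against 43.2 and 72.1 (-0.95, adjusted p = 0.0448 by edgeR). In these cells 5.68% of all genes were called. Of the other chemokines, 4 of 5 were tested in 20 pairs and 2 were higher. The platelet chemokine Pf4 in macrophages went from 36.1 and 50.4 to 153 and 192 (1.98, adjusted p = 0.0141), where 0.329% of all genes were called. Cxcl12, the retention signal read by Cxcr4, went in B cells from 1.37 and 3.21 to 16.2 and 7.69 (2.13, adjusted p = 0.0219), on 1, 11, 72 and 21 UMIs. CAR cells are the main stromal source of Cxcl12, and the part of free RNA in this low B cell level was not tested.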

How the data were processed

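Bone marrow of 5TMM mice given vehicle or 10 mg/kg PM (2 mice each, 24 h) was profiled with the 10x Genomics 3' kit. The authors aligned the reads with Cell Ranger and STAR to a mouse reference that the methods name as GRCm38 and the processing notes of the submitters as GRCm39, and deposited, for every barcode, the raw UMI counts of each gene, neither normalized nor pooled. Barcodes were kept from 300 genes upward when no more than 20% of their counts were mitochondrial. Clustering used scanpy 1.11.5 (2500 variable genes without the ligands, 30 principal components, 15 neighbors) and leidenalg 0.10.2 with igraph 0.11.9 at a resolution of 1, and the mice were not integrated. Clusters were named by the mean log2 ratio of listed markers to the other clusters. A name needed 3 or more raised markers, 20 or more cells, no more than 50% of them called doublets, and a lead of 0.2 over any other name. The markers of no other type could outnumber its own among the leading genes. A cluster contested between the neutrophil and the Il1b-high neutrophil lists was named neutrophil, the wider class. This applied to a cluster of 3253 cells, which scored 1.606 for Il1b-high neutrophil and 0.124 for neutrophil. These limits were chosen with the clusters in view, and the names may differ from those of the study. Doublets were scored against simulated ones within each mouse and called at 0.8% per 1000 cells (6.26% to 10.7% of the barcodes), but kept in the sums. Called doublets were left out in an alternative.

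UMIs were summed over the cells of a type in a mouse where each mouse gave 10 or more, and tested with edgeR 4.0.16 under R 4.3.3 (robust quasi-likelihood fit on treatment alone, with TMM factors and filterByExpr) over all genes of a type. DESeq2 1.42.0, RLE size factors, total UMIs, no filter on low counts, leaving out each mouse, a replicate block, stricter cells (500 genes, 10% mitochondrial counts) and other clusterings were alternatives. The test was tried on simulated counts with known changes. For the pairing check, deviations of same-numbered mice from their group means correlated at -0.152 to 0.227 over the types, so the numbers were not taken as pairs. Of 32285 gene IDs, 32158 were found in GENCODE vM21, and positions are those of GRCm38. Of the 41 member IDs, 34 were found there.

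Values were named for ligands called in any comparison, for ligands with at least 100 UMIs, for Cxcl10 and Ccl7 in each type with a UMI, and for called receptors and other chemokines. Other values, such as Ccl5 by T cell cluster, were chosen after they were seen. Members and lists were chosen with earlier results of these data known. Binomial intervals are exact at 95% and cover counting error only. The results of 1 receptor are not reported here.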

Additional observations from a re-analysis of the deposited data

Results flagged for a closer look

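For 4 of the ligands tested, the effect of PM differed between 2 cell types of the same mice by the interaction test of edgeR, with the mouse as a block, and each is given here as the difference of log2 fold changes. Of 14 ligands tested for neutrophils minus mono&prog, 2 were higher and none was lower, where 4.2% of all genes were called. Of 14 tested for macrophages minus mono&prog, 1 was higher and 1 lower, where 0.244% of all genes were called. Ccl9 changed by 1.87 more in neutrophils than in mono&prog (SE 0.24, adjusted p = 0.0137), and this held in 8 of 8 alternatives. Ccl6 differed in the same direction by 0.60 (SE 0.11, adjusted p = 0.00682), which was lost without PM 1 and without PM 2. Cxcl2 changed by 2.18 more in macrophages than in mono&prog (SE 0.45, adjusted p = 0.00117), which was lost in 4 of 8 alternatives, among them without vehicle 1, without PM 1 and without PM 2. Cxcl9 differed by -4.24 between macrophages and mono&prog (SE 1.03, adjusted p = 0.0409), which was lost in 5 of 8 alternatives and rests on the mono&prog sum of PM 1, where 150 of 216 UMIs lay in 1 cell. Of the macrophage UMIs of Cxcl9, 18 of 20 in vehicle 1 and 16 of 22 in vehicle 2 also lay in 1 cell of each mouse. The macrophages had the fewest UMIs per cell of the types compared here, and neutrophil markers summed in them to 140650 to 227375 CPM. No cause of these differences was tested.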

How the results depend on the processing

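None of the 11 named pairs and differences rerun under the alternatives turned its direction. Of the pairs of a ligand and a cell type, 6 were called, and DESeq2, RLE size factors, total UMIs, stricter cells, called doublets left out and the other clusterings gave 6 to 8. Without a filter on low counts 27 were called, and leaving out 1 mouse at a time gave 13 to 23, with 15 without vehicle 1, 14 without vehicle 2, 13 without PM 1 and 23 without PM 2. Without PM 2, 8 were higher and 15 lower. Whether the replicate numbers of the labels stand for the 2 independent experiments that the study mentions is not stated. The replicate block was therefore an alternative, and it gave 10 pairs. A crossed replicate block, chosen after seeing the data, gave 14. The blocks appear here and beside the Cxcr3 ligands. All 6 pairs were among those called under either block. In all kept cells the 0 ligands called by edgeR became 1, Ccl2, with DESeq2, and 0 to 1 when 1 mouse was left out, with Ccl2 called without vehicle 2. The 4 differences between cell types became 2 to 6 when 1 mouse was left out, with 2 without vehicle 1 and 2 without PM 1. The cause was not tested. Taking the type with the highest level in place of the highest share left 6 of 16 main sources as they were, and the other settings left 11 to 16. With 2 mice per group, ligands under 100 UMIs and types with few cells are limited by depth, and the sampling of single cells with many UMIs weighed on Cxcl9, Cxcl10 and Cxcl5.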
